A study of Homo sapiens with 12 samples.

Results

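The semaphorins, plexins and neuropilins are 31 protein-coding genes of the 62656 in the deposited count table: 20 semaphorins (7 of class 3, 6 of class 4, 2 of class 5, 4 of class 6 and 1 of class 7), 9 plexins (4 of type A, 3 of type B, 1 of type C and 1 of type D) and 2 neuropilins. They were chosen by gene symbol alone (SEMA3A to SEMA7A, PLXNA1 to PLXND1, NRP1 and NRP2), but the family was proposed with earlier results of these data in view, so the share of its members that changed is given as a description. Their RNA was sequenced in 12 libraries from 2 established cell lines of human colorectal cancer, HCT116 and LoVo, with 3 libraries in each of 4 groups. In HCT116, cells with overexpression of SLERT (OE) were set against HCT116 control cells, and in LoVo, cells with knockdown of SLERT (KD) were set against LoVo control cells. SLERT, a long non-coding RNA capped by a snoRNA at each end, comes from the TBRG4 gene, and by its title the study is about how SLERT promotes the spread of colorectal cancer to the liver. The sources used here do not give the vector, the hairpin, the number of clones, the time after gene transfer or whether replicates were grown separately.

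Semaphorins are guidance proteins that share an extracellular sema domain. Class 3 semaphorins are secreted, classes 4 to 6 cross the membrane and SEMA7A is held to it by a lipid anchor. Plexins are their receptors and carry an intracellular GTPase-activating domain that acts on small GTPases of the Ras family, while type B plexins also bind guanine nucleotide exchange factors for RhoA. Neuropilins are co-receptors that let most secreted semaphorins act through type A plexins, and they also bind VEGF proteins. In epithelia and carcinomas the family is known for its effects on cell repulsion, adhesion, migration and vessel growth.

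Libraries held 14.46 to 17.23 M counts. The SLERT locus was read through its snoRNA ends and host gene. In HCT116, SNORA5C held 551, 661 and 714 counts in the OE libraries and 4, 4 and 8 in the controls, SNORA5A held 142 counts over the OE libraries and 0 over the controls, and TBRG4 was higher in OE (edgeR log2 fold change 0.66, adjusted p = 5.24e-08). In LoVo, SNORA5C held 11, 14 and 12 counts in the libraries labelled KD and 9, 9 and 19 in the controls (edgeR log2 fold change -0.02, 95% interval -0.92 to 0.87, adjusted p = 0.98), SNORA5A held 10 counts over KD and 12 over control libraries, and TBRG4 differed by 0.07 on the log2 scale (edgeR adjusted p = 0.413). No fall was thus found at this depth, and "KD" stands here for the libraries so labelled. Colorectal epithelial markers summed to 1120 to 1190 FPKM in the OE libraries and 1110 to 1150 in the HCT116 controls, and to 1630 to 1720 in the KD libraries and 1850 to 1940 in the LoVo controls. FPKM are counts per 1000000 counts and per 1000 bases of gene length. EPCAM, KRT8, KRT18 and KRT19 made up most of that sum in both lines, whereas in HCT116 CDX1 was at 0 and VIL1, CDH17, LGALS4 and CEACAM5 were at 0.156 FPKM or below. Leukocyte markers summed to at most 1.18 FPKM and the endothelial sum to at most 4.47 FPKM, nearly all of it ESAM, with CDH5 at 0 in both LoVo groups. Fibroblast markers summed to 0.463 to 0.569 FPKM in the KD libraries and 2.07 to 2.35 in the LoVo controls, which was mainly COL3A1, at 0.314 and 1.91 FPKM, with COL1A2 at 0 in both, and to 7.55 to 8.28 FPKM in the OE libraries and 8.59 to 9.30 in the HCT116 controls, mainly COL1A1. Neuronal markers, of which 5 of 6 were found, summed to 9.35 to 10.2 FPKM in the OE libraries and 10.6 to 11.3 in the HCT116 controls, mainly SYT1, and to at most 0.42 FPKM in LoVo. Retinal markers, tested because the protocol text speaks of retinas, summed to at most 5.62 FPKM, mainly RPE65. The part of these differences in the results below was not tested.

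Both lines expressed the family widely, and the same plexin led it in both. Averaged over the 6 libraries of a line, 27 of the 31 members had at least 0.1 FPKM in HCT116 and 26 in LoVo, 24 of them in both, and PLXNB2, a receptor for class 4 semaphorins, had the highest level of all members in both lines. It averaged 67.7 ± 6.78 FPKM in the OE libraries and 68.4 ± 3.26 in the HCT116 controls, and 48.8 ± 5.98 in the KD libraries and 76.5 ± 7.004 in the LoVo controls (SD, n = 3 each). PLXNB2 made up 61.0% to 62.2% of the summed plexin FPKM in the OE libraries and 59.3% to 60.7% in their controls. Its share was 47.8% to 49.6% in the KD libraries and 53.2% to 53.6% in the LoVo controls. The 2 ranges did not overlap in LoVo, nor did they in HCT116.

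The leading semaphorin differed between the lines. In HCT116 it was SEMA6B, a transmembrane ligand of PLXNA4, with 40.55, 35.2 and 35.8 FPKM in the OE libraries and 39.6, 39.4 and 33.45 in the controls. SEMA6B made up 33.8% to 35.6% of the summed semaphorin FPKM in the OE libraries and 31.0% to 33.7% in the controls. In LoVo the leading semaphorin was SEMA4B, with 15.4, 13.7 and 14.45 FPKM in the KD libraries and 13.95, 12.3 and 12.4 in the controls, or 22.1% to 23.5% and 17.8% to 18.7% of the semaphorin sum. The next 3 members of HCT116 by level were PLXNA1, SEMA4B and PLXND1. PLXNA1, a receptor that acts with neuropilins, had 15.1, 13.1 and 13.7 FPKM in the OE libraries and 15.1, 14.7 and 13.7 in the controls. SEMA4B had 11.1, 10.1 and 11.1 FPKM in the OE libraries and 12.1, 12.3 and 11.8 in the controls, and PLXND1, a receptor of SEMA3E, had 11.6, 10.2 and 10.3 against 12.2, 11.35 and 11.0. For PLXNA1 and PLXND1 the 2 HCT116 groups overlapped. In LoVo the order after PLXNB2 was PLXNA1, PLXNB1, SEMA4B and PLXNA3, at means over all 6 libraries of 16.65, 14.6, 13.7 and 11.3 FPKM. In the KD libraries alone SEMA4B (14.5 FPKM) stood before PLXNA1 (14.1 FPKM) and PLXNB1 (13.1 FPKM).

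The summed FPKM of the neuropilins was far below that of the plexins. Over the 6 libraries of each line, both neuropilins still had higher means than PLXNC1, which was among the lowest plexins. The neuropilin sum was 0.989 to 1.01 FPKM in the OE libraries and 0.937 to 1.05 in the HCT116 controls. In LoVo it was 4.06 to 4.28 FPKM in the KD libraries and 3.01 to 3.56 in the controls. NRP2 was the larger share in every HCT116 library and NRP1 in every LoVo library. At the low end, SEMA6D held no count in HCT116, and 3 counts over the KD libraries and 2 over the LoVo controls. PLXNA4, SEMA3D and SEMA3E held no count in LoVo, where a count of 0 over 3 libraries allows up to 3 counts, or 0.0677 normalised counts per 1000000 (CPM) in the controls. SEMA5A held 1 count over the 6 HCT116 libraries. Floors of this kind cover counting error only.

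**Figure D1:**
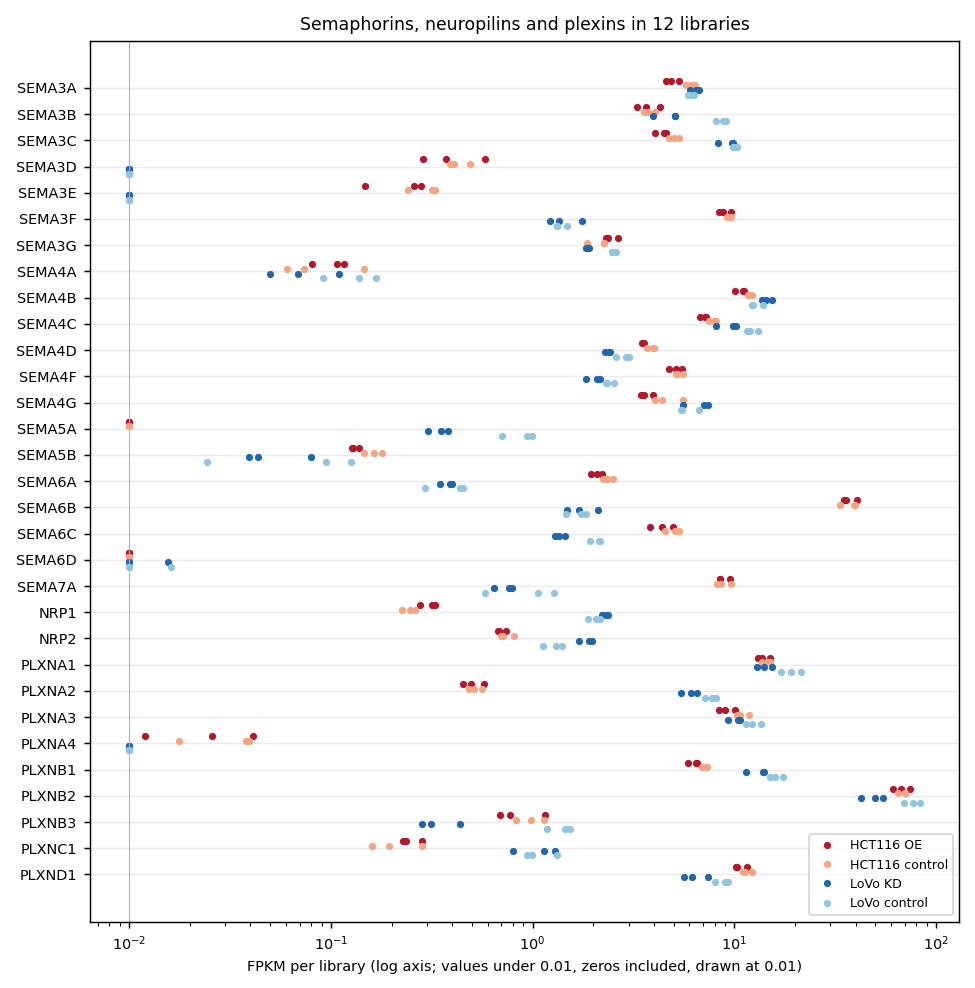
FPKM of each of the 31 members in each of the 12 libraries, on a log axis, with values under 0.01 drawn at 0.01. PLXNB2 lies farthest to the right in all 4 groups, SEMA6B stands near 37 FPKM in HCT116 and near 1.7 FPKM in LoVo, and the KD points of PLXNB2, PLXNB3, SEMA3B and SEMA5A lie to the left of their LoVo controls.

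In LoVo, most plexin receptors were lower in the libraries labelled KD. Of the 8 plexins that passed the filter on low counts, 7 fell and none rose, and PLXNC1 was not called. Among all members tested, 15 of 27 were called by edgeR's quasi-likelihood test at an adjusted p under 0.05 over all genes, which is 55.6%, against 26.3% of all 16253 genes tested. Of the members, 2 were higher and 13 were lower, where 12.6% and 13.7% of all genes were called in those directions. The median log2 fold change was -0.27 over the 27 members and 0 over all genes. How many of all genes had KD and control libraries without overlap in LoVo was not counted. The lack of overlap given below for single members is therefore a description only. In bulk RNA, fewer cells with a transcript and less of it per cell cannot be told apart. The epithelial and fibroblast marker sums given above were also lower in the KD libraries than in the LoVo controls. Among the 12 epithelial markers, KRT8, KRT18, KRT19, KRT20, CDX2 and VIL1 had lower means in KD, whereas EPCAM (152 FPKM in KD and 116 in control), CDH17 (120.0 and 71.3), CEACAM5 (24.7 and 17.3), LGALS4 (9.07 and 6.18), CDH1 and CDX1 had higher means. The part of these markers in the changes was not tested.

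The largest change among the plexins was in PLXNB3, a receptor of SEMA5A, on chromosome X (153764196 to 153779346, plus strand; GRCh38, GENCODE v29). It had 3.11, 2.01 and 2.22 CPM in KD libraries 1, 2 and 3, against 10.1, 8.20 and 10.8 CPM in the LoVo controls. All 3 KD values were below all 3 controls, and the change was 3.96-fold lower (log2 fold change -1.99, SE 0.19, edgeR adjusted p = 4.66e-08). These values rest on 110 counts over the KD libraries and 432 over the controls. On the same strand, 20.4% of the PLXNB3 exon bases are also exon of SRPK3, which had 2.97 ± 0.358 CPM in KD and 4.56 ± 0.963 CPM in control libraries (SD, n = 3 each; log2 fold change -0.62, adjusted p = 0.0354), and how the counting shared such reads is not given in the sources used here.

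PLXNB2, the most abundant member, had 402, 312 and 364 CPM in the KD libraries, against 597, 498 and 558 CPM in the controls. The groups did not overlap, and PLXNB2 was 1.53-fold lower (log2 fold change -0.62, SE 0.08, edgeR adjusted p = 2.03e-06). It lies on chromosome 22 (50274979 to 50307627, minus strand). PLXND1 had 71.9, 54.5 and 59.8 CPM in KD, against 88.0, 76.1 and 86.15 CPM in control libraries, and fell by 0.43 on the log2 scale (SE 0.09, adjusted p = 0.000692). PLXNA1 had 175, 148 and 159 CPM in KD, against 237, 189 and 215 CPM in control libraries, and fell by 0.41 (SE 0.08, adjusted p = 0.000273). In both genes the highest KD library was below the lowest control.

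The other called plexins moved less. PLXNA2, a receptor of class 3 and class 6 semaphorins, had 91.98, 76.75 and 85.0 CPM in KD, against 112, 98.5 and 107 CPM in control libraries, and fell by 0.32 on the log2 scale (SE 0.07, edgeR adjusted p = 0.00204). PLXNB1, a receptor of SEMA4D, had 139, 112.5 and 138 CPM in KD, against 169, 145 and 155 CPM in control libraries, and fell by 0.27 (SE 0.08, adjusted p = 0.0105). PLXNA3, which acts with NRP2, had 127.5, 110.4 and 123.0 CPM in KD, against 156, 132 and 142 CPM in control libraries, and fell by 0.26 (SE 0.07, adjusted p = 0.00941). No KD library reached the lowest control in any of these 3 genes. Without control library 1, PLXNB1 (log2 fold change -0.21, adjusted p = 0.0875) and PLXNA3 (-0.19, adjusted p = 0.0899) were not called. With limma on log2(FPKM + 1), PLXNB1 (adjusted p = 0.0628) and PLXNA3 (0.0511) were not called either, nor was PLXNB1 on log2(FPKM + 0.1) (0.0607). PLXNC1, a receptor of SEMA7A, had 8.15, 13.1 and 11.5 CPM in KD and 13.1, 9.86 and 9.45 CPM in control libraries, with a log2 fold change of 0.02 (95% interval -0.31 to 0.35).

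In 3 of the 4 groups, 1 library was the lowest for nearly all of the 7 plexins that fell. Library 2 was the lowest of its group for 7 of 7 in KD, for 7 of 7 in the LoVo controls and for 6 of 7 in the OE libraries, whereas in the HCT116 controls library 3 was lowest for 5, library 1 for 1 and library 2 for 1. How often each library was the lowest over all genes was not counted, so whether this is particular to the plexins was not tested. The 7 plexins were chosen by their fall in these same LoVo libraries.

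**Figure D2:**
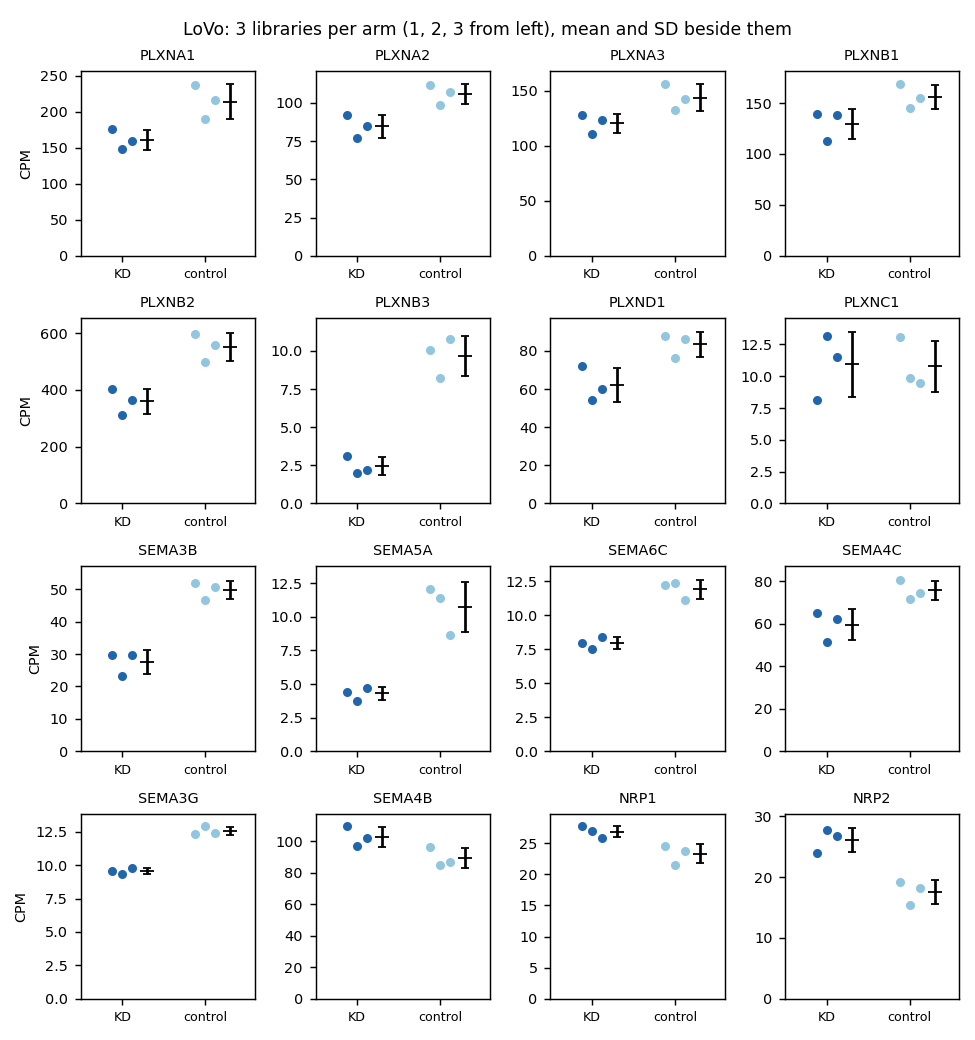
CPM, on axes that start at 0, of 16 members in the LoVo libraries, 3 points per group with the mean and SD beside them. All plexins but PLXNC1 and the semaphorins SEMA3B, SEMA5A, SEMA6C, SEMA4C and SEMA3G are lower in KD than in control, while SEMA4B and NRP2, and by a margin that was not called NRP1, are higher.

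The promoters of members that changed in LoVo are shown to give the sequence at their RefSeq starts. Windows from 250 bases before to 50 bases after the RefSeq start (GRCh38.p14) were found for 27 of the 31 members, 48 windows in all, and not for NRP1, SEMA3A, SEMA6A and SEMA6B. The set holds the 2 members with the largest falls, PLXNB3 and SEMA5A, the most abundant plexin, PLXNB2, 1 type A and 1 type D plexin that also fell, and NRP2, which rose. The windows are PLXNB3 at chrX:153763999-153764298 (plus strand), SEMA5A at chr5:9546026-9546325 (minus), PLXNB2 at chr22:50301620-50301919 (minus), PLXNA1 at chr3:126982865-126983164 (plus), PLXND1 at chr3:129606627-129606926 (minus) and NRP2 at chr2:205682251-205682550 (plus). The start used for PLXNB2 lies inside the GENCODE v29 gene, which reaches 50307627, and that of PLXNA1 lies before the GENCODE v29 gene, which begins at 126988594. Each window is printed 5′ to 3′, and capitals mark a match to the EGR motif on either strand.
PLXNB3: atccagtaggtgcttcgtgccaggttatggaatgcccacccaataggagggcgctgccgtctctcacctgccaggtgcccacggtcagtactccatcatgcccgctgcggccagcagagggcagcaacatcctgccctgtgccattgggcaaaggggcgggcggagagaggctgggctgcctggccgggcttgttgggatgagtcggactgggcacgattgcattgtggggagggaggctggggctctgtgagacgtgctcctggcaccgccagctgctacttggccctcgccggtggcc
SEMA5A: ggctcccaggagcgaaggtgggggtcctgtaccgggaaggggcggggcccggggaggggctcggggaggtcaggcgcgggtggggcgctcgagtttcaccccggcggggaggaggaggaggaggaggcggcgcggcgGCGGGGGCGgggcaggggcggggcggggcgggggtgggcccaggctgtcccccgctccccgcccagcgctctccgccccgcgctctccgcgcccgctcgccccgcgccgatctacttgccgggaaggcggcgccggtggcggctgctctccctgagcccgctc
PLXNB2: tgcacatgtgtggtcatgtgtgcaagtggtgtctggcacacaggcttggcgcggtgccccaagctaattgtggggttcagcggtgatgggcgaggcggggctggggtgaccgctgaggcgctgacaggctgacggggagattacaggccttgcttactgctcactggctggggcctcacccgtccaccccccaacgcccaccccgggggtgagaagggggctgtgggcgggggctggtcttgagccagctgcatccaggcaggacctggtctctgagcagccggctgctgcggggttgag
PLXNA1: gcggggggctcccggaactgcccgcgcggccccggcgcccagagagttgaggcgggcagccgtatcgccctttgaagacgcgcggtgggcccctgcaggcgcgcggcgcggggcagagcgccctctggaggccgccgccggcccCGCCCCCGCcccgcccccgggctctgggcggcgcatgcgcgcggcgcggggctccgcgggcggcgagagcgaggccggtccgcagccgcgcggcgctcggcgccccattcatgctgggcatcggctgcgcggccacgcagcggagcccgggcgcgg
PLXND1: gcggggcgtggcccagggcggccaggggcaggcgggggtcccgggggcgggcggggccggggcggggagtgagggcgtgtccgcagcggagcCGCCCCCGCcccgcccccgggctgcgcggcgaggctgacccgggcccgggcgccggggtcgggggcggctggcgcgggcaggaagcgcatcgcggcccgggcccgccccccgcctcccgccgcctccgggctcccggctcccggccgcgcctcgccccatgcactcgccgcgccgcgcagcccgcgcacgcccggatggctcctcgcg
NRP2: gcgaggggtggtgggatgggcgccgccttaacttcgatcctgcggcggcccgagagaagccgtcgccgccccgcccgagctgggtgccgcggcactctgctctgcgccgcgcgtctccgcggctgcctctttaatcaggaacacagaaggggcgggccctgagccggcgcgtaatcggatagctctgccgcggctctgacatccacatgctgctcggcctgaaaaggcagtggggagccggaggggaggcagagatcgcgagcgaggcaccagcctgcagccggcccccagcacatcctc

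The median GC content was higher in the member promoters than over all RefSeq windows, with wide overlap. It was 65.0% (quartiles 57.5% and 74.7%), against 58.7% (quartiles 47.0% and 68.0%) over all 35116 windows of the same length. The median ratio of observed to expected CpG was 0.62 in the member promoters, against 0.58. Searched on both strands, the EGR motif GCGNGGGCG was in 11 of 48 member windows (22.9%) and in 9.43% of all windows. It began 106 bases before the start in PLXNA1, 158 in PLXND1 and 113 in SEMA5A, and it was also found in PLXNA2, PLXNA3, SEMA3B, SEMA3C, SEMA3F, SEMA4G and SEMA6D. Counted by gene, 10 of the 27 members with a window held it, and 6 of the 15 members called in LoVo. The medians and shares above are counted by window, and some members had several windows. The AP-1 motif TGANTCA was in 1 member window (PLXNC1) and in 7.71% of all windows, and the E-box CACGTG was in 3 (SEMA3E, SEMA4D and SEMA6D) and in 7.26%. A CArG box was in 0 of the 48 and in 1.29% of all. The windows of PLXNB3, PLXNB2 and NRP2 held none of the 4 motifs. These are matches of letters only, and the part of the higher GC content in the EGR share was not tested.

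Among the ligands, 6 of the 17 semaphorins tested fell and 1 rose in LoVo, where 13.7% of all genes were called lower and 12.6% higher. SEMA5A, a transmembrane ligand of PLXNB3 with thrombospondin repeats, had 4.42, 3.77 and 4.71 CPM in KD, against 12.1, 11.4 and 8.62 CPM in control libraries. The groups were well apart, and SEMA5A was 2.50-fold lower (log2 fold change -1.32, SE 0.17, edgeR adjusted p = 2.99e-06), from 194 counts over KD and 481 over control libraries. It lies on chromosome 5 (9035026 to 9546075, minus strand). SEMA3B, a secreted semaphorin on the short arm of chromosome 3 (50267558 to 50277546, plus strand) that has been studied as a tumour suppressor in lung cancer, had 29.8, 23.1 and 29.6 CPM in KD, against 51.8, 46.6 and 50.8 CPM in control libraries. It was 1.81-fold lower (log2 fold change -0.86, SE 0.09, adjusted p = 3.09e-07), with no overlap.

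SEMA6C, a transmembrane semaphorin, had 7.94, 7.54 and 8.42 CPM in KD, against 12.25, 12.4 and 11.1 CPM in control libraries, and fell by 0.58 on the log2 scale (SE 0.13, edgeR adjusted p = 0.00184). SEMA4C, a ligand of PLXNB2, had 65.3, 51.2 and 62.4 CPM in KD, against 80.9, 71.9 and 74.7 CPM in control libraries, and fell by 0.35 (SE 0.08, adjusted p = 0.00292). SEMA3G, a secreted ligand of NRP2, had 9.53, 9.37 and 9.76 CPM in KD, against 12.3, 12.9 and 12.4 CPM in control libraries, and fell by 0.39 (SE 0.12, adjusted p = 0.0187). The 2 groups did not overlap in any of the 3. Without control library 2 or control library 3, SEMA3G had adjusted p-values of 0.0604 and 0.0549.

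SEMA4D, the ligand of PLXNB1, and SEMA4B were called near the threshold. SEMA4D had 34.6, 34.9 and 32.7 CPM in KD, against 40.6, 36.5 and 42.35 CPM in control libraries (log2 fold change -0.22, SE 0.08, edgeR adjusted p = 0.0468). Its call was lost without KD library 3 (adjusted p = 0.178), control library 1 (0.137) or control library 3 (0.228), and also with DESeq2 (0.0681), upper quartile factors (0.0508), no filter on low counts (0.0853) and limma on log2(FPKM + 1) (0.131) or log2(FPKM + 0.1) (0.135). SEMA4B had 109.6, 96.9 and 102 CPM in KD, against 96.4, 85.0 and 86.7 CPM in control libraries, a rise of 0.20 on the log2 scale (SE 0.07, adjusted p = 0.0338). Without KD library 1, KD library 3, control library 2 or control library 3, its adjusted p was 0.115, 0.0933, 0.139 and 0.149, and with the same limma fits it was 0.137 and 0.135. In both genes the KD and control libraries did not overlap, but the gap between the nearest 2 libraries was small.

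The other 10 semaphorins tested in LoVo were not called. SEMA3A, SEMA3C, SEMA3F, SEMA6A and SEMA6B had log2 fold changes from -0.08 (SEMA3C) to 0.11 (SEMA3A), and all of their groups overlapped. SEMA4F, at 12.8 ± 1.13 CPM in KD and 14.8 ± 0.749 CPM in control libraries, had no overlap and an edgeR adjusted p of 0.203, and SEMA4G, at 35.9 ± 5.18 and 30.9 ± 3.62 CPM, had an adjusted p of 0.133 (SD, n = 3 each). Without KD library 2, SEMA4G passed (log2 fold change 0.33, adjusted p = 0.00563). SEMA4G shares 22.3% of its exon bases with MRPL43 on the opposite strand, and whether the counting used strand is not given in the sources used here. SEMA4A, SEMA5B and SEMA7A held 24, 21 and 128 counts over the KD libraries and 40, 31 and 163 over the controls, and the 95% interval of SEMA4A was -1.70 to 0.20, that of SEMA5B -1.69 to 0.56 and that of SEMA7A -0.89 to 0.16. These intervals cover changes as large as those called in other members, so they were not resolved at this depth.

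Of the neuropilins, NRP2 rose in LoVo and NRP1 was not called. NRP2, a co-receptor of SEMA3F and of VEGFC, had 24.0, 27.7 and 26.7 CPM in KD, against 19.3, 15.4 and 18.1 CPM in control libraries. Every KD library was above every control, and NRP2 was 1.49-fold higher (log2 fold change 0.57, SE 0.10, edgeR adjusted p = 0.000274). It lies on chromosome 2 (205681990 to 205798133, plus strand). NRP1, the co-receptor of SEMA3A, had 27.7, 27.0 and 25.9 CPM in KD, against 24.5, 21.6 and 23.8 CPM in control libraries, with no overlap and an adjusted p of 0.103 (log2 fold change 0.21, 95% interval 0.02 to 0.39).

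Read by known ligand and receptor pairs, the values ran as follows in LoVo. Both SEMA5A and PLXNB3 fell, both SEMA4C and PLXNB2 fell, and both SEMA4D and PLXNB1 fell. All plexins tested but PLXNC1 fell, so a fallen semaphorin set beside almost any of them would give such a pair. The calls of SEMA4D and PLXNB1 were lost without single libraries and under some other processing choices. SEMA3G fell while its co-receptor NRP2 rose. For SEMA7A and PLXNC1 neither was called, and neither were SEMA3A and NRP1. SEMA3F was not called, while its co-receptor NRP2 rose. For PLXND1, which fell, the ligand SEMA3E held no count in LoVo. SEMA3B and SEMA6C, which fell, and SEMA4B, which rose, were not placed in a pair here.

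**Figure D3:**
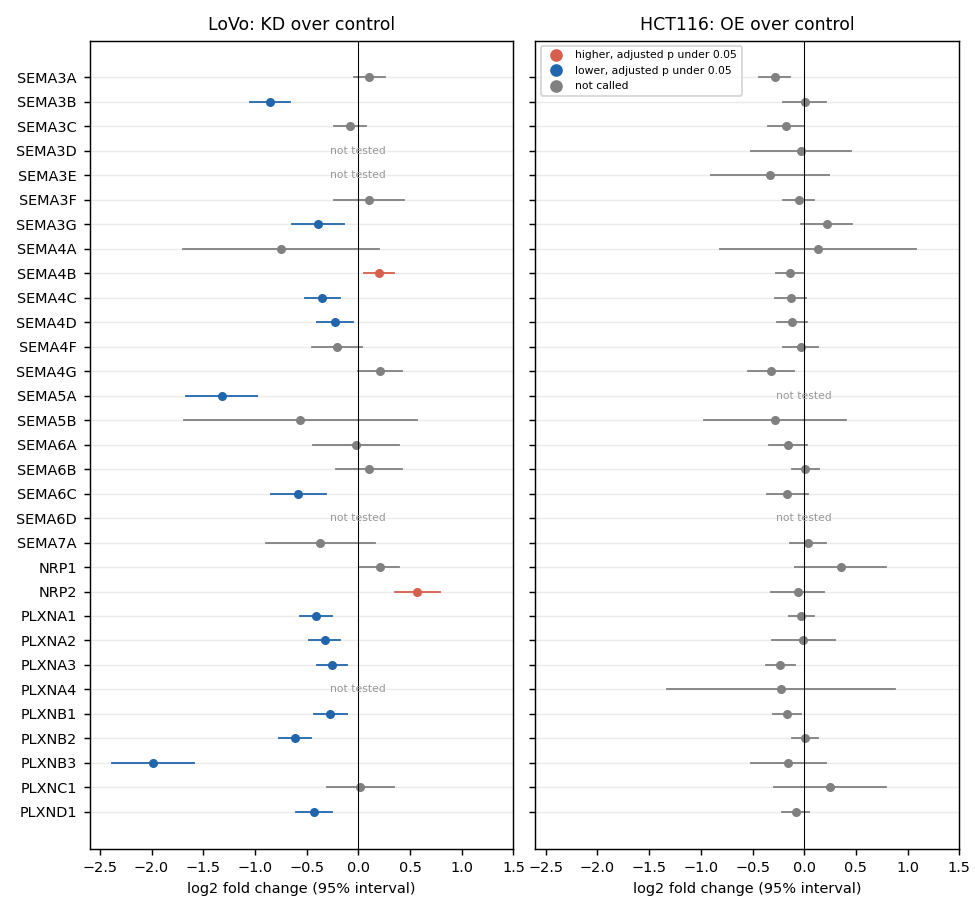
log2 fold change with its 95% interval for each member, KD over control in LoVo and OE over control in HCT116. Of the 27 members tested in LoVo, 13 are lower and 2 higher at an adjusted p under 0.05, and of the 29 tested in HCT116 none is called.

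In HCT116, no member was called between OE and control. Of the 29 members tested, 0 passed an edgeR adjusted p under 0.05, against 0.914% of all 15980 genes, and 6 had an unadjusted p under 0.05 (SEMA3A, PLXNA3, SEMA4G, PLXNB1, SEMA4B and SEMA3C), all with lower values in OE; over all genes, 2298 had an unadjusted p under 0.05. DESeq2 called 1 member, SEMA3A. An edgeR fit with a block for replicate number called SEMA3A, PLXNA3, SEMA4G and PLXNB1, and 1322 of all genes tested. The median log2 fold change was -0.08 over the members and -0.002 over all genes. All 3 OE libraries lay below all 3 controls in 8 members, a pattern found in 9.58% of all genes, and above them in 2, a pattern found in 9.56%. SEMA5A, with 1 count, and SEMA6D, with none, were not tested.

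The member nearest to a call was SEMA3A, a secreted semaphorin that repels growing axons through NRP1. It and the 3 genes after it here were singled out after their values were seen. SEMA3A had 42.7, 49.7 and 45.6 CPM in OE, against 53.5, 58.8 and 56.2 CPM in control libraries, without overlap (log2 fold change -0.29, SE 0.07, edgeR adjusted p = 0.054). The call turned on the processing. SEMA3A passed under DESeq2 (adjusted p = 0.0319), upper quartile factors (0.0438), no filter on low counts (0.0316), a replicate block (0.000767) and a fit of all 12 libraries (0.0479). Over all 14 alternatives its adjusted p ran from 0.000767 to 0.239. PLXNA3 had 119.3, 99.1 and 106.5 CPM in OE, against 137, 119.0 and 125 CPM in control libraries, and OE library 1 lay just above control library 2 (log2 fold change -0.23, adjusted p = 0.0961). Without OE library 1, PLXNA3 had a log2 fold change of -0.30 and an adjusted p of 0.0265. PLXNA3 also passed with no filter on low counts (0.0452) and with a replicate block (0.000263). Over all alternatives its adjusted p ran from 0.000263 to 0.394.

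SEMA4G had 19.0, 21.1 and 18.6 CPM in OE, against 29.25, 21.2 and 23.1 CPM in control libraries (edgeR adjusted p = 0.137), with control library 2 almost level with OE library 2. PLXNB1 had 64.5, 57.95 and 63.7 CPM in OE, against 71.5, 69.6 and 67.8 CPM in control libraries (adjusted p = 0.224). With a replicate block in the edgeR fit, SEMA4G (adjusted p = 0.02) and PLXNB1 (0.0424) passed. The abundant members held narrow intervals. The log2 fold change of PLXNB2 was 0.01 (95% interval -0.12 to 0.13), that of PLXNA1 was -0.03 (-0.15 to 0.09), that of PLXND1 was -0.08 (-0.21 to 0.05) and that of SEMA6B was 0.01 (-0.12 to 0.14). For PLXNB2 and PLXNA1 these intervals do not reach the changes measured in LoVo.

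NRP1 and SEMA3G were the 2 members with every OE library above every control. NRP1 had 3.69, 3.23 and 3.85 CPM in OE, against 2.83, 2.96 and 2.60 CPM in control libraries (log2 fold change 0.35, 95% interval -0.09 to 0.79, edgeR adjusted p = 0.469). SEMA3G had 11.98, 11.8 and 13.5 CPM in OE, against 11.4, 11.3 and 9.43 CPM in control libraries (adjusted p = 0.434). Both were singled out after their values were seen, neither passed the test, and NRP1 rests on 171 counts over OE and 142 over control libraries.

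**Figure D4:**
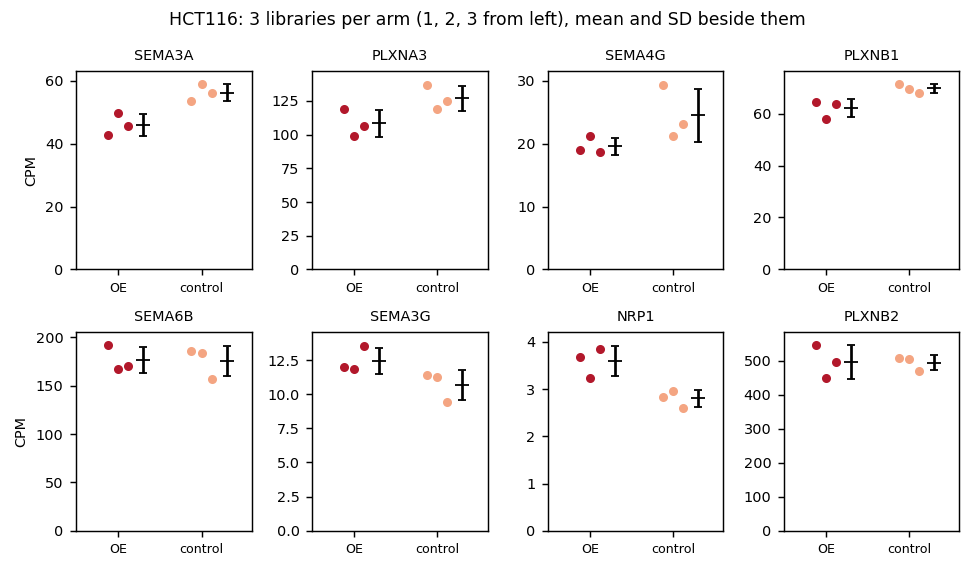
CPM of 8 members in the HCT116 libraries, 3 points per group with the mean and SD beside them. SEMA3A and PLXNB1 lie lower in OE than in control without overlap, whereas PLXNB2 and SEMA6B overlap between the groups.

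The lines differed far more from each other than the groups did within a line, as they did over all genes. Between HCT116 control and LoVo control, 23 of 29 members tested were called, or 79.3%, against 79% of all 17143 genes tested. Of these, 11 were higher and 12 lower in HCT116 control, where 39.9% and 39% of all genes were called in those directions. The share of called members was thus near that of all genes. Both shares include genes that passed the filter only through the line where they were high. Among the members these were SEMA5A, SEMA3D and SEMA3E, whose calls were fixed by that and which are given below as bounds. Both control groups are the ones used in the tests within each line.

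Of the semaphorins detected in both lines, SEMA6B, SEMA7A, SEMA3F and SEMA6A were the farthest above LoVo control in HCT116 control. SEMA6B was 23.9-fold higher (37.5 ± 3.49 FPKM in HCT116 control and 1.68 ± 0.193 in LoVo control, SD, n = 3 each; log2 fold change 4.58, edgeR adjusted p = 1.33e-28). SEMA7A was 9.70-fold higher (8.80 ± 0.768 and 0.971 ± 0.355 FPKM), SEMA3F 7.33-fold (9.44 ± 0.178 and 1.37 ± 0.0976 FPKM) and SEMA6A 6.40-fold (2.36 ± 0.126 and 0.394 ± 0.0862 FPKM). SEMA4F, SEMA6C, SEMA4D and SEMA5B were also higher, and PLXND1 was the one plexin tested that was (1.40-fold). SEMA5B was not called without HCT116 control library 2 (adjusted p = 0.0538) or LoVo control library 3 (0.154).

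Of the 10 plexins and neuropilins tested, 7 were lower and 1 was higher in HCT116 control. PLXNA2 was 13.9-fold lower (0.519 ± 0.0394 FPKM in HCT116 control and 7.71 ± 0.487 in LoVo control; edgeR adjusted p = 1.38e-26), NRP1 7.78-fold (0.245 ± 0.0171 and 2.04 ± 0.133 FPKM) and PLXNC1 4.75-fold (0.213 ± 0.0635 and 1.09 ± 0.206 FPKM; SD, n = 3 each). PLXNB1, SEMA3B, SEMA3C, NRP2, SEMA4C and PLXNA1 were lower by 1.24-fold (PLXNA1) to 2.14-fold (SEMA3B). PLXNB3 (log2 fold change -0.40) and SEMA4G (-0.24) were also called, with overlapping groups: PLXNB3 lost the call without HCT116 control library 3 (adjusted p = 0.108) or LoVo control library 3 (0.0895), and SEMA4G without HCT116 control library 2 (0.253), HCT116 control library 3 (0.113) or LoVo control library 1 (0.206). PLXNB2 and SEMA4B had log2 fold changes of -0.07 (95% interval -0.19 to 0.05) and -0.001 (-0.12 to 0.12). Without LoVo control library 2, PLXNB2 (adjusted p = 0.034) and PLXNA3 (0.0493) passed as lower.

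Members detected in one line alone had to differ once they passed the filter, so their folds are given only as bounds. SEMA5A was at least 182-fold lower in HCT116 control, with 0 counts against 481 in LoVo control. SEMA3D was at least 52.5-fold and SEMA3E at least 36.7-fold higher in HCT116 control, with 179 and 125 counts against 0 in LoVo control, and PLXNA4, which was not tested, was at least 7.63-fold higher, with 26 counts against 0. These bounds are taken against 3 counts over the 3 libraries of the group at 0. SEMA3C, SEMA3E, SEMA3A and SEMA3D lie near each other on the long arm of chromosome 7, SEMA3C from 80742538 and SEMA3D up to 85186855. In LoVo control SEMA3A had 6.09 ± 0.212 FPKM and SEMA3C 10.05 ± 0.274, while SEMA3E and SEMA3D, their neighbours in that stretch, were at 0 (SD, n = 3).

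**Figure D5:**
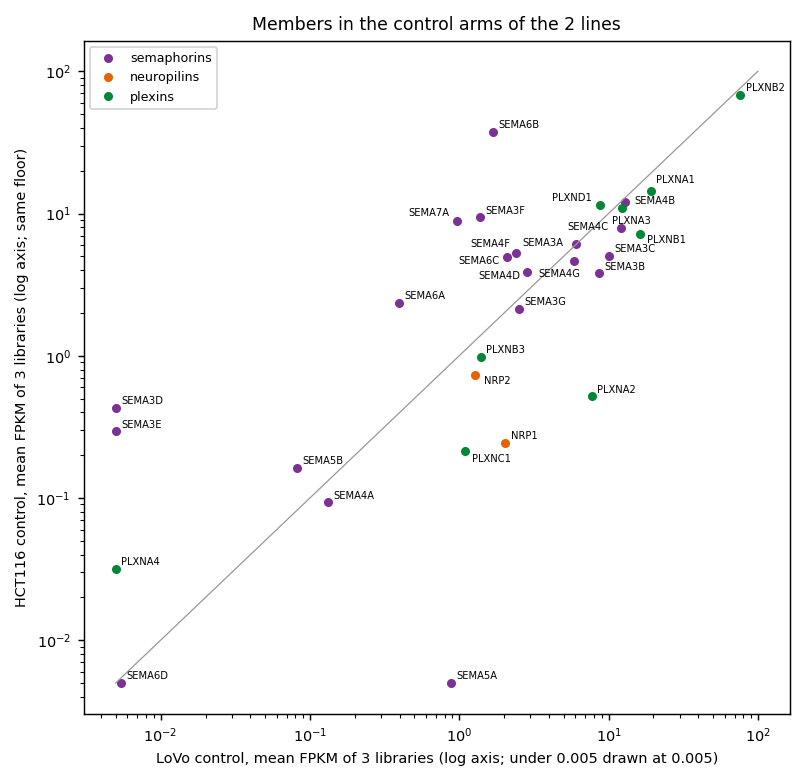
Mean FPKM of each member in HCT116 control against LoVo control, on log axes, with values under 0.005 drawn at 0.005 and the diagonal marking equal levels. SEMA6B, SEMA7A, SEMA3F and SEMA6A lie above the diagonal, and PLXNA2, NRP1, PLXNC1 and SEMA5A below it.

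The changes in the 2 lines were set against each other in a fit of all 12 libraries, with the LoVo change (KD minus control) minus the HCT116 change (OE minus control). Of 29 members tested, 9 differed at an edgeR adjusted p under 0.05, against 11.6% of all 18199 genes. The LoVo and HCT116 changes themselves are those given above, and the SLERT locus showed no fall in the libraries labelled KD. The line and the kind of manipulation (KD or OE) differ together here, so their parts in a difference cannot be told apart. A gene that moved in opposite directions under KD and OE would also count as differing. The LoVo change was lower for PLXNB3 (difference -1.82, SE 0.28, adjusted p = 6.45e-05), PLXNB2 (-0.61, SE 0.11, adjusted p = 0.000335), SEMA3B (-0.84, SE 0.14, adjusted p = 0.000219), PLXNA1 (-0.37, SE 0.10, adjusted p = 0.0183) and SEMA3G (-0.59, SE 0.17, adjusted p = 0.0202). It was higher for NRP2 (0.65, SE 0.16, adjusted p = 0.00756), SEMA3A (0.41, SE 0.10, adjusted p = 0.0077), SEMA4B (0.36, SE 0.09, adjusted p = 0.0123) and SEMA4G (0.55, SE 0.16, adjusted p = 0.0251).

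For PLXNA3 and PLXNB1, which fell in LoVo, the difference was -0.01 (95% interval -0.23 to 0.20) and -0.09 (-0.30 to 0.13), so their changes in the 2 lines were not told apart. PLXND1 had a difference of -0.33 with an adjusted p of 0.0547, and it was called under 8 of 17 alternatives, among them DESeq2 (adjusted p = 0.0466), with adjusted p-values from 0.000971 to 0.124 over all 17. The calls of PLXNA1, SEMA3G and SEMA4B were each lost without 1 library (LoVo control 1, adjusted p = 0.0531; HCT116 OE 3, 0.0544; LoVo control 3, 0.0548). SEMA4G was not called without any 1 of 7 libraries, with adjusted p-values from 0.0647 to 0.123. SEMA6C passed without HCT116 OE library 3 (0.0467) and SEMA7A without LoVo control library 2 (0.0389). No difference is given for SEMA5A, SEMA3D and SEMA3E, which were at or near 0 counts in one of the lines.

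The wider pathway was read through 64 genes known to act with the family: other ligands and co-receptors, enzymes that cut semaphorins, and the proteins that carry the plexin signal. In LoVo 24 of 54 tested were called (9 higher and 15 lower, 44.4%), against 26.3% of all genes, with a median log2 fold change of -0.09. In HCT116, 0 of 59 passed with edgeR, against 0.914% of all genes, and 0 passed with DESeq2, while 7 of 59 had an unadjusted p under 0.05 (VEGFA, L1CAM, CD72, RHOD, FARP1, FYN and PTK2B), against 2298 of all 15980 genes.

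Among the ligands and co-receptors, 1 of 12 rose and 5 fell in LoVo, where 12.6% of all genes were called higher and 13.7% lower. L1CAM, an adhesion molecule that forms a receptor complex with NRP1, had 2.62, 2.01 and 2.02 CPM in KD, against 9.00, 10.8 and 7.93 CPM in control libraries, a 4.17-fold lower level (log2 fold change -2.06, SE 0.19, edgeR adjusted p = 2.68e-08). GIPC1, which binds the neuropilin tail, fell by 0.42 on the log2 scale (adjusted p = 6.74e-05), the growth factor VEGFB by 0.36 (adjusted p = 0.00328) and ERBB2, a receptor tyrosine kinase that binds type B plexins, by 0.26 (adjusted p = 0.0123). Of the semaphorin-cutting enzymes, PCSK6 fell by 0.39 (adjusted p = 0.00029), MMP14 by 0.37 (adjusted p = 0.000566) and FURIN by 0.23 (adjusted p = 0.0188), while ADAM10 rose (log2 fold change 0.24, adjusted p = 0.00832). The other 3 of 7 were not called.

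Of 35 genes of plexin signalling tested in LoVo, 7 rose and 7 fell, where 12.6% of all genes were called higher and 13.7% lower. MICAL2, an enzyme that oxidises actin, had 279.7, 271.1 and 280.1 CPM in KD, against 210.2, 195.8 and 196.6 CPM in control libraries, and rose (log2 fold change 0.46, SE 0.06, edgeR adjusted p = 2.58e-06). DPYSL2, a collapsin response mediator, fell by 0.37 on the log2 scale (adjusted p = 0.000169), the actin-severing protein CFL1 by 0.31 (adjusted p = 0.000495) and LIMK2, the kinase of CFL1, by 0.34 (adjusted p = 0.000715). In the fit of all 12 libraries, 12 of 60 partner genes differed between the LoVo and HCT116 changes, against 11.6% of all genes. Of those described here, L1CAM (difference -1.87, adjusted p = 8.55e-08), GIPC1 (-0.50, adjusted p = 0.000225), MICAL2 (0.37, adjusted p = 0.00522), LIMK2 (-0.47, adjusted p = 0.00402), CFL1 (-0.36, adjusted p = 0.00288), DPYSL2 (-0.40, adjusted p = 0.00372), PCSK6 (-0.53, adjusted p = 0.00497), VEGFB (-0.41, adjusted p = 0.0303) and ADAM10 (0.32, adjusted p = 0.0127) were among them, while ERBB2, MMP14 and FURIN were not called.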

How the data were processed

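RNA of 12 libraries was made with Trizol and an Illumina TruSeq kit from 1 ug of total RNA, per the labels' protocols. That text also speaks of retinas, which was taken as no statement on the tissue. The deposited table of read counts per gene was not normalised, and the deposited FPKM equalled counts divided by gene length and column total (largest relative deviation 4.09e-13). The submitters' processing notes name HISAT2 2.1.0 and the build GRCh38. The sources used here do not give the read counter, its annotation or its strand setting. Groups follow the sample titles. Per the file headers, the HCT116 control columns are called Vector, which is the least certain match, and the LoVo columns Sh (KD) and ShNC (control).

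Symbols and coordinates came from GENCODE v29, and promoters from RefSeq (GRCh38.p14). The members, the partner lists and the rule for naming genes were chosen with earlier results of these data known. Every member called within a line and the 5 with the highest mean FPKM of each line are given by library, and of each partner list up to 4 called genes by smallest p. Partner symbols matched 64 genes, and CHL1 and ADAMTS1 were not matched. Each line's counts went into edgeR 4.0.16 under R 4.3.3 (quasi-likelihood F test, TMM factors, filterByExpr, Benjamini-Hochberg over all genes, threshold 0.05). CPM use the TMM factors. The scripts were tested on simulated data. The alternatives were DESeq2 1.42.0, RLE and upper quartile factors, no filter, limma 3.58.1 on log2(FPKM + 1) and log2(FPKM + 0.1) of the deposited FPKM, a replicate block, all 12 libraries in 1 fit, and leaving out each library. No source calls the replicates separate cultures. Their p-values therefore measure only how these samples vary, and that variation may be technical. Libraries of a group differed by more than sampling noise (chi-square per degree of freedom 2.40 to 6.63), so each was counted as 1 replicate. With 3 libraries per group, an exact permutation test cannot give a p below 0.1, so none was used.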

Additional observations from a re-analysis of the deposited data

How the results depend on the processing

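In LoVo, the number of members called ran from 12 to 16 when single libraries were left out, against 15 in the main test, and 10 calls held under all 14 alternatives (NRP2, PLXNA1, PLXNA2, PLXNB2, PLXNB3, PLXND1, SEMA3B, SEMA4C, SEMA5A and SEMA6C). SEMA4B was lost under 6 alternatives, SEMA4D under 8, PLXNB1 under 3, PLXNA3 under 2 and SEMA3G under 2. Limma on log2(FPKM + 1) gave smaller changes for low genes by its construction, with -0.83 for PLXNB3, -0.48 for SEMA5A and 0.33 for NRP2. In HCT116, where 0 members were called, the count was 1 with DESeq2, 1 with upper quartile factors, 2 with no filter, 1 with all 12 libraries in 1 fit, and 0 to 1 without single libraries. The partner genes called in LoVo were 11 and 11 with limma on log2(FPKM + 1) and log2(FPKM + 0.1), against 24, and the cause was not tested. Between the control groups, SEMA4G was also lost with DESeq2 (adjusted p = 0.0648) and SEMA5B with limma on log2(FPKM + 1) (0.0653). No called result changed sign under any alternative run, whereas members that were not called and lay near 0 did, such as PLXNC1 in LoVo (-0.13 to 0.19) and PLXNB2 in HCT116 (-0.07 to 0.08). Upper quartile factors gave 24 of 29 HCT116 members a negative value, against 21 with TMM.

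Over all genes, LoVo calls were 2845 with limma on log2(FPKM + 1) and 2769 to 4813 without single libraries, against 4278. HCT116 calls were 256 with DESeq2, 256 with no filter, 7 and 7 with limma and 37 to 287 without single libraries, against 146.

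Libraries with the same number in both groups of a line correlated at 0.016 to 0.085 in their deviations from the group means. Every library correlated best with its own number. The sources used here do not say whether the numbers pair the libraries, and correlations this small cannot settle it. The main fits leave the libraries unpaired. With a replicate block, 16 LoVo members, 4 HCT116 members (PLXNA3, PLXNB1, SEMA3A and SEMA4G), 2 HCT116 partner genes and 10 members of the difference between lines were called, and over all genes 5588 in LoVo, 1322 in HCT116 and 3559 in the difference, against 2119 without it.

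Depth limits the members with few counts, SEMA4A and SEMA5B in both lines and PLXNA4 in HCT116, whose intervals are wide.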
